A study of Neurospora crassa with 12 samples.

Results

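The germling fusion genes of the filamentous fungus Neurospora crassa were followed as a set of 10 genes, chosen by name and locus: so (NCU02794), ham-2 (NCU03727), ham-3 (NCU08741), ham-4 (NCU00528), ham-5 (NCU01789), ham-6 (NCU02767), ham-7 (NCU00881), ham-8 (NCU02811), and the transcription factor genes pp-1 (NCU00340) and adv-1 (NCU07392). All 10 were found among the 9730 genes of the count tables, and all 10 passed the filter on low counts in every comparison, with 556 to 17066 read counts per library. The RNA-seq experiment compared 2 strains, labelled Δpac-3 and Δmus-52, after germination of conidia for 5 h at 30°C in medium of pH 5.4 with low phosphate (low-Pi, 10 µM) or high phosphate (high-Pi, 10 mM). Each of the 4 groups (Δpac-3 low-Pi, Δmus-52 low-Pi, Δpac-3 high-Pi, Δmus-52 high-Pi) has 3 biological replicates, numbered I to III, which gives 12 libraries of total RNA from mycelium.

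In the Δpac-3 strain the coding region of pac-3, the transcription factor gene of pH signaling, was replaced by the bar gene. It was made in a mus-52 knockout background, so that by the study's methods both strains lack mus-52, a gene of non-homologous end joining. The conidia came from cultures of 10 days for Δpac-3 and of 5 days for Δmus-52, and this age and the genotype cannot be told apart in any strain comparison. The purpose of the design was to find genes whose expression depends on PAC-3 at each Pi level.

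Neurospora germlings that grow near each other sense one another, grow toward each other and fuse through specialised tips, which joins a colony into 1 network. In a pair of germlings the MAP kinase MAK-2 and the SO protein arrive at the tips in turn, so that the cells alternate between sending and receiving a signal. A further MAP kinase, MAK-1, belongs to the cell wall integrity pathway and is also needed for fusion, and the STRIPAK complex at the nuclear envelope, with striatin as its scaffold, acts with both kinases. The genes divide by role into the scaffolds SO and HAM-5, the STRIPAK subunits HAM-2, HAM-3 and HAM-4, the surface and membrane proteins HAM-6, HAM-7 and HAM-8, and the transcription factors PP-1 and ADV-1.

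The genes lie on 4 chromosomes of the NC12 assembly, by the RefSeq annotation of protein-coding genes. On chromosome I are so (9109342 to 9114311), ham-4 (8112407 to 8116828), ham-6 (9272188 to 9275044), ham-7 (6878944 to 6881270), ham-8 (9041203 to 9044883) and adv-1 (6094075 to 6098544). The striatin gene ham-3 (3855430 to 3859274) and ham-5 (2433075 to 2439647) lie on chromosome II, pp-1 (3507722 to 3512003) on chromosome III and ham-2 (2223109 to 2227285) on chromosome V. The STRIPAK subunits are thus spread over 3 chromosomes, and all 3 surface and membrane protein genes are on chromosome I.

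The libraries hold 20240314 to 82211503 counts. Levels are given below as CPM, the counts of a gene relative to the library's total, scaled by TMM factors, and they are compared between libraries for 1 gene, not between genes. Log2 CPM of replicates correlated across genes at 0.989 to 0.994 in 3 groups and at 0.968 to 0.981 in Δpac-3 high-Pi (genes are not independent replicates). The labels were checked on the deleted genes. NCU00090, the pac-3 locus, averaged 149 ± 12.8 CPM in low-Pi libraries labelled Δpac-3, against 515 ± 7.59 CPM in those labelled Δmus-52, and 156 ± 26.4 CPM in high-Pi libraries labelled Δpac-3, against 397 ± 48.4 CPM in those labelled Δmus-52 (SD, n = 3 each). The mus-52 gene had 0 to 36 counts in the libraries labelled Δpac-3 and 487 to 1344 counts in the libraries labelled Δmus-52. The mus-52 counts therefore go against the label Δmus-52. NCU00090 still had 3000 to 12710 counts in the libraries labelled Δpac-3. Its level is lower there than in the other strain, but it is not the near absence that a replaced coding region would leave. The source of these reads was not tested, and every direction below is between libraries as labelled. Among 9 conidial marker genes none was at 0 in any library, and their summed level was 201.5 to 567 CPM in Δpac-3 low-Pi against 208 to 252 CPM in Δmus-52 low-Pi, and 192 to 351 CPM in Δpac-3 high-Pi against 86.7 to 92.4 CPM in Δmus-52 high-Pi. Of these 9 markers, 5 were higher and 2 lower in Δpac-3 in low-Pi, and 5 were higher and 0 lower in high-Pi. Among all genes tested 25.3% were higher and 25.9% lower in low-Pi, and 18.8% were higher and 16.6% lower in high-Pi. The low-Pi sum leaned on eas, with means of 290 CPM in Δpac-3 and 5.81 CPM in Δmus-52. The marker ccg-1 went the other way in low-Pi, with means of 36.3 CPM in Δpac-3 and 184 CPM in Δmus-52. Of 3 markers of growing hyphae, hex-1 was higher in Δpac-3 at both Pi levels. Its log2 fold change was 1.18 in low-Pi (edgeR adjusted p = 3.45e-05) and 0.86 in high-Pi (edgeR adjusted p = 0.00228). The actin gene act and the tubulin gene Bml were not called in either. The sum of the 3 was 4721 to 5709 CPM in Δpac-3 low-Pi against 3162 to 3464 CPM in Δmus-52 low-Pi. In high-Pi it was 4797 to 5801 CPM in Δpac-3 against 3943 to 4304 CPM in Δmus-52. The part of both lists in the results on the fusion genes was not tested. In these bulk samples, fewer cells of a type and less RNA per cell cannot be told apart.

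In low-Pi, 4 of the 10 fusion genes were higher in Δpac-3 than in Δmus-52 and 0 were lower (edgeR quasi-likelihood test on 6 libraries, Benjamini-Hochberg adjusted p below 0.05 over 8269 genes). These were the wall protein gene ham-7, the membrane protein gene ham-8, and both transcription factor genes, pp-1 and adv-1. In the same comparison 51.2% of all tested genes were called, 25.3% as higher and 25.9% as lower, so that the share of fusion genes called lies below that of all genes and the share called higher above it. The median log2 fold change was 0.25 over the 10 genes and 0.02 over all genes. In high-Pi only pp-1 of the 10 passed the same test, against 35.4% of 8284 genes called, 18.8% as higher and 16.6% as lower, and the median was 0.07 over the 10 genes and -0.01 over all genes.

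**Figure D1:**
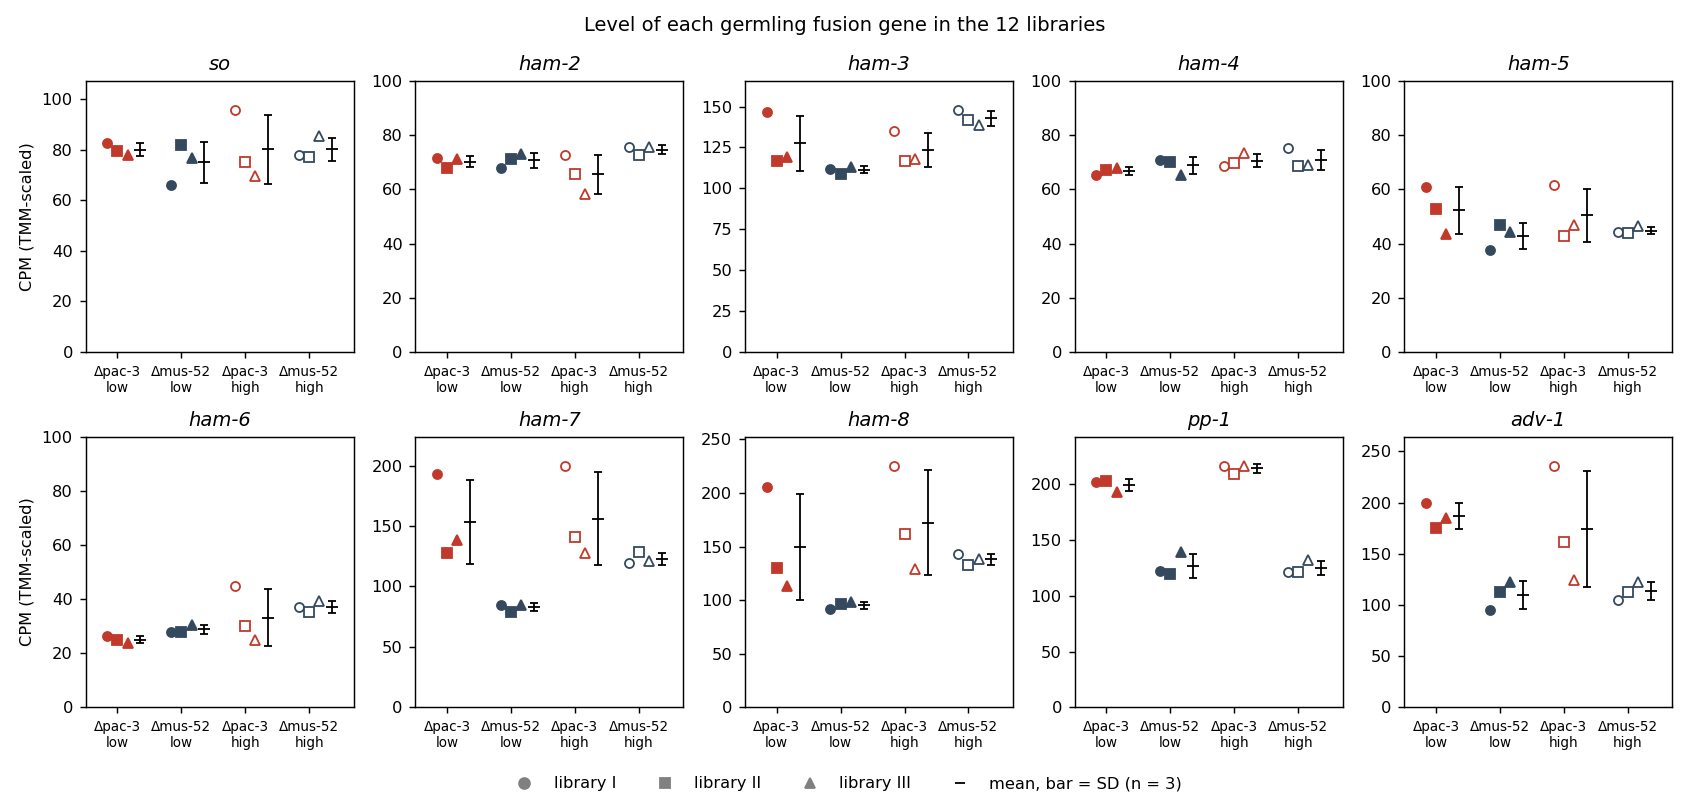
Level of the 10 germling fusion genes in the 12 libraries, in CPM scaled by TMM factors (linear axes that start at 0, 1 panel per gene), with the mean and SD of 3 libraries beside the points. The libraries labelled Δpac-3 lie above those labelled Δmus-52 in both Pi conditions for pp-1 and adv-1 and in low-Pi alone for ham-3, ham-7 and ham-8. They lie below for ham-6 in low-Pi and for ham-2 and ham-3 in high-Pi. The genes so, ham-2, ham-4 and ham-5 keep group means within 1.22-fold of each other.

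PP-1, a Ste12-like transcription factor downstream of MAK-2, had the same pattern at both Pi levels. In low-Pi, pp-1 was at 202, 203 and 193 CPM in Δpac-3, against 122, 119.7 and 139 CPM in Δmus-52. In high-Pi it was at 216, 209 and 216 CPM in Δpac-3, against 121, 121 and 132 CPM in Δmus-52. The 6 libraries labelled Δpac-3 were above all 6 labelled Δmus-52. On the log2 scale the difference for pp-1 was 0.66 in low-Pi (SE 0.09, edgeR adjusted p = 0.000192) and 0.77 in high-Pi (SE 0.10, edgeR adjusted p = 0.00208). The difference between these values, the interaction of strain and Pi in a fit of the 12 libraries, was -0.12 (SE 0.12, edgeR adjusted p = 0.559), with a 95% interval of -0.39 to 0.15. In the Δpac-3 groups its SDs, 5.32 CPM at low-Pi and 4.05 CPM at high-Pi, were the smallest of the 4 genes called in low-Pi.

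ADV-1, a zinc cluster transcription factor that fusion and sexual development require, was at 199.9, 175 and 185 CPM in Δpac-3 low-Pi, against 95.2, 113 and 122 CPM in Δmus-52 low-Pi. No library of one strain reached into the range of the other, and the log2 fold change of adv-1 in low-Pi was 0.77 (SE 0.11, edgeR adjusted p = 0.000226). In high-Pi the libraries of Δpac-3 spread widely, at 236, 162 and 124 CPM, against 105, 113 and 122.6 CPM in Δmus-52. The lowest of the Δpac-3 libraries here lay just above the highest of Δmus-52. The log2 fold change of adv-1 in high-Pi was 0.61 (SE 0.22, edgeR adjusted p = 0.0692), which did not pass the threshold, while DESeq2 gave an adjusted p of 0.0393. This value moved with single libraries of Δpac-3 high-Pi: it was 0.32 without replicate I (edgeR adjusted p = 0.1331) and 0.81 without replicate III (edgeR adjusted p = 0.0144). The SD in Δpac-3 high-Pi was 56.9 CPM, against 8.7 CPM in Δmus-52 high-Pi. The interaction for adv-1 was 0.15 (SE 0.27, edgeR adjusted p = 0.762), with a 95% interval of -0.43 to 0.72, wide enough to hold a difference of either sign.

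HAM-7, a cell surface protein upstream of MAK-1, had the largest log2 fold change of the 10 genes in low-Pi with all libraries. Without replicate I of Δpac-3 low-Pi it was 0.68, below the 0.71 of adv-1. In low-Pi, ham-7 was at 193, 128 and 139 CPM in Δpac-3, against 84.8, 79.3 and 84.6 CPM in Δmus-52. The groups were separate, and the log2 fold change was 0.89 (SE 0.14, edgeR adjusted p = 0.0005), a ratio of 1.86. In high-Pi ham-7 was at 199.97, 141 and 127 CPM in Δpac-3, against 119.7, 129 and 121 CPM in Δmus-52. These groups overlap, and the log2 fold change was 0.33 (SE 0.17, edgeR adjusted p = 0.171), with a 95% interval of -0.07 to 0.74. Without replicate I of Δpac-3 high-Pi the value of ham-7 was 0.11 (edgeR adjusted p = 0.4875).

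HAM-8, a predicted membrane protein that germling fusion needs, had a like pattern with wider replicates. In low-Pi, ham-8 was at 206, 129.6 and 113 CPM in Δpac-3, against 91.6, 96.7 and 97.9 CPM in Δmus-52. The 3 libraries of Δpac-3 were above those of Δmus-52, and the log2 fold change was 0.66 (SE 0.19, edgeR adjusted p = 0.0148). A large part of this value came from replicate I of Δpac-3: without it the log2 fold change of ham-8 was 0.34 (SE 0.09, edgeR adjusted p = 0.007174). In high-Pi ham-8 was at 225.5, 162 and 129 CPM in Δpac-3, against 143, 133 and 139 CPM in Δmus-52, and the groups overlapped. The log2 fold change there was 0.31 (SE 0.20, edgeR adjusted p = 0.252), and it was 0.06 without replicate I of Δpac-3 high-Pi (edgeR adjusted p = 0.7427) and 0.49 without replicate III (edgeR adjusted p = 0.04845).

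HAM-6, the other membrane protein, did not follow them. In low-Pi, ham-6 was at 26.4, 24.9 and 23.8 CPM in Δpac-3, against 28.0, 27.8 and 30.6 CPM in Δmus-52, with all 3 libraries of Δpac-3 below those of Δmus-52. The log2 fold change of -0.19 (SE 0.09, edgeR adjusted p = 0.113) did not pass the test. In high-Pi ham-6 was at 44.8, 30.0 and 24.7 CPM in Δpac-3, against 36.9, 35.1 and 39.5 CPM in Δmus-52, and its log2 fold change was -0.18 (SE 0.21, edgeR adjusted p = 0.541). Here too replicate I set the spread: without it the log2 fold change of ham-6 in high-Pi was -0.46 (edgeR adjusted p = 0.03622).

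The scaffold and STRIPAK genes gave no call in either strain comparison. SO, a scaffold with a WW domain, had a log2 fold change of 0.10 in low-Pi (95% interval -0.11 to 0.31) and -0.01 in high-Pi (-0.34 to 0.32). HAM-5, the scaffold of the MAK-2 cascade, had values of 0.30 in low-Pi (0.01 to 0.59, edgeR adjusted p = 0.0821) and 0.16 in high-Pi (-0.19 to 0.51). For ham-2, the STRIP subunit, they were -0.00 (-0.17 to 0.17) and -0.20 (-0.46 to 0.07). For ham-4, a subunit with a forkhead-associated domain, they were -0.04 (-0.21 to 0.13) and -0.02 (-0.25 to 0.22). Across the 12 libraries ham-4 ranged only from 65.3 to 75.3 CPM, ham-2 from 58.4 to 75.6 CPM and so from 66.2 to 95.7 CPM, while ham-5 ranged from 37.6 to 61.5 CPM. The ratio of the highest to the lowest group mean was 1.06 for ham-4, 1.07 for so, 1.14 for ham-2 and 1.22 for ham-5, and neighbouring group means in each of these 4 orders had overlapping libraries. By the annotation the ham-2 gene overlaps its neighbour NCU03728 by 17 bases, the only overlap among the 10 genes.

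For ham-3, the striatin gene, the strain difference took opposite signs at the 2 Pi levels, with neither value called. In low-Pi, ham-3 was at 147, 117 and 119.2 CPM in Δpac-3, against 112, 109 and 113 CPM in Δmus-52. In high-Pi it was at 135, 117 and 118 CPM in Δpac-3, against 148, 142 and 139 CPM in Δmus-52. All 3 libraries of Δpac-3 were above those of Δmus-52 in low-Pi and all 3 below them in high-Pi. The log2 fold change of ham-3 was 0.20 in low-Pi (SE 0.10, edgeR adjusted p = 0.119) and -0.22 in high-Pi (SE 0.11, edgeR adjusted p = 0.157). Without replicate I of Δpac-3 low-Pi the low-Pi value was 0.08 (edgeR adjusted p = 0.4627). When counts were scaled by library totals only, the high-Pi value was close to 0, at 0.04. With that scaling the low-Pi value was 0.38 and was called (edgeR adjusted p = 0.00478).

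**Figure D2:**
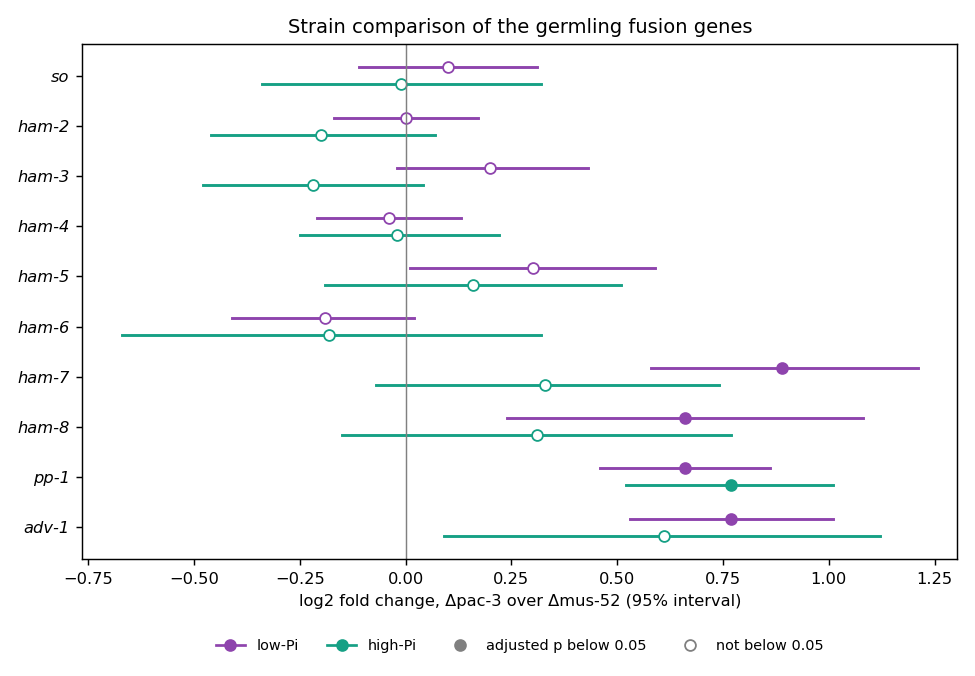
Log2 fold change of Δpac-3 over Δmus-52 for each fusion gene (x axis) in low-Pi and in high-Pi, with 95% intervals from edgeR and filled points where the adjusted p is below 0.05. The filled points are ham-7, ham-8, pp-1 and adv-1 in low-Pi, between 0.66 and 0.89, and pp-1 in high-Pi, at 0.77.

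Counting libraries in place of the test, all libraries of Δpac-3 were above those of Δmus-52 for 5 of the 10 genes in low-Pi (ham-3, ham-7, ham-8, pp-1 and adv-1) and below for 1 (ham-6), where 59.7% of all genes had libraries that did not overlap, 29.9% above and 29.8% below. In high-Pi they were above for 2 (pp-1 and adv-1) and below for 2 (ham-2 and ham-3), against 51.5% of all genes, 25.7% above and 25.8% below. The study's own threshold for modulated genes asks, besides the adjusted p, for a log2 fold change of 1.5 or more in size. None of the 10 fusion genes reached it in the strain comparisons, where 9.6% of all genes did in low-Pi and 9.14% in high-Pi. DESeq2 also placed 0 of the 10 past it, while an unadjusted edgeR p below 0.05 was found for 5 of the 10 at low-Pi, against 4746 of 8269 genes, and for 2 of the 10 at high-Pi, against 3876 of 8284 genes.

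The interaction of strain and Pi, the strain effect in low-Pi minus that in high-Pi, passed the test for 0 of the 10 genes, against 10.5% of 8465 genes, 2.94% as higher and 7.53% as lower. Past the threshold of 1.5 in size were also 0 of the 10, against 3.63% of all genes. An unadjusted p below 0.05 was reached by 2 of the 10, against 2337 of 8465 genes, and DESeq2 called 0 of the 10 and 1317 genes in all. These 2 were ham-3, with an interaction of 0.41 (SE 0.15, edgeR adjusted p = 0.0948), and ham-7, with 0.54 (SE 0.24, edgeR adjusted p = 0.174). The strain difference of ham-7 is therefore called in low-Pi and not in high-Pi, but it is not shown to differ between the Pi levels. This rested on 1 library: without replicate I of Δpac-3 high-Pi the interaction was 0.76 for ham-7 (edgeR adjusted p = 0.02272) and 0.48 for ham-3 (edgeR adjusted p = 0.04115), which gives 2 calls, and without replicate I of both Pi conditions it was 0.53 for ham-7 (edgeR adjusted p = 0.02499), the only call.

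Replicate I of Δpac-3 stood above its group for most fusion genes. It was the highest of the 3 libraries for 8 of the 10 genes in Δpac-3 low-Pi and for 8 of the 10 in Δpac-3 high-Pi, against 2 of 10 in Δmus-52 low-Pi and 3 of 10 in Δmus-52 high-Pi. Its median deviation from the group mean over the 10 genes was 0.09 log2 units in Δpac-3 low-Pi and 0.29 in Δpac-3 high-Pi, and the largest was 0.51, for ham-8 in low-Pi. The exceptions at both Pi levels were ham-4, which had its lowest level in replicate I, and pp-1, whose replicate I lay near the group mean. In Δmus-52 the deviations of all libraries lay between -0.20 and 0.16. How often replicate I of Δpac-3 was the highest library over all genes was not counted. Its place is therefore not shown to be particular to the fusion genes. The low-Pi library of this pair is the deepest of the 12, with 82211503 counts, and the high-Pi one is the shallowest of its group, with 28463224 counts. In summed level of the 9 conidial markers, replicate I was the lowest of its group at both Pi levels, with 201.5 CPM against 556 and 567 CPM in the other Δpac-3 low-Pi libraries, and 192 CPM against 223 and 351 CPM in the other Δpac-3 high-Pi libraries. The largest differences in these sums came from eas. It was at 81.1 CPM against 388 and 402 CPM in low-Pi, and 26.1 CPM against 89.6 and 134 CPM in high-Pi. In low-Pi every marker but fl was lowest in replicate I. There fl was highest, at 50.1 CPM against 26.6 and 23.4 CPM. In high-Pi con-8, con-10, eas, ccg-9 and fl were lowest in replicate I, and ccg-1 was highest (112 CPM against 54.5 and 63.5 CPM). The part of depth and of conidial RNA in the levels of the fusion genes was not tested.

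**Figure D3:**
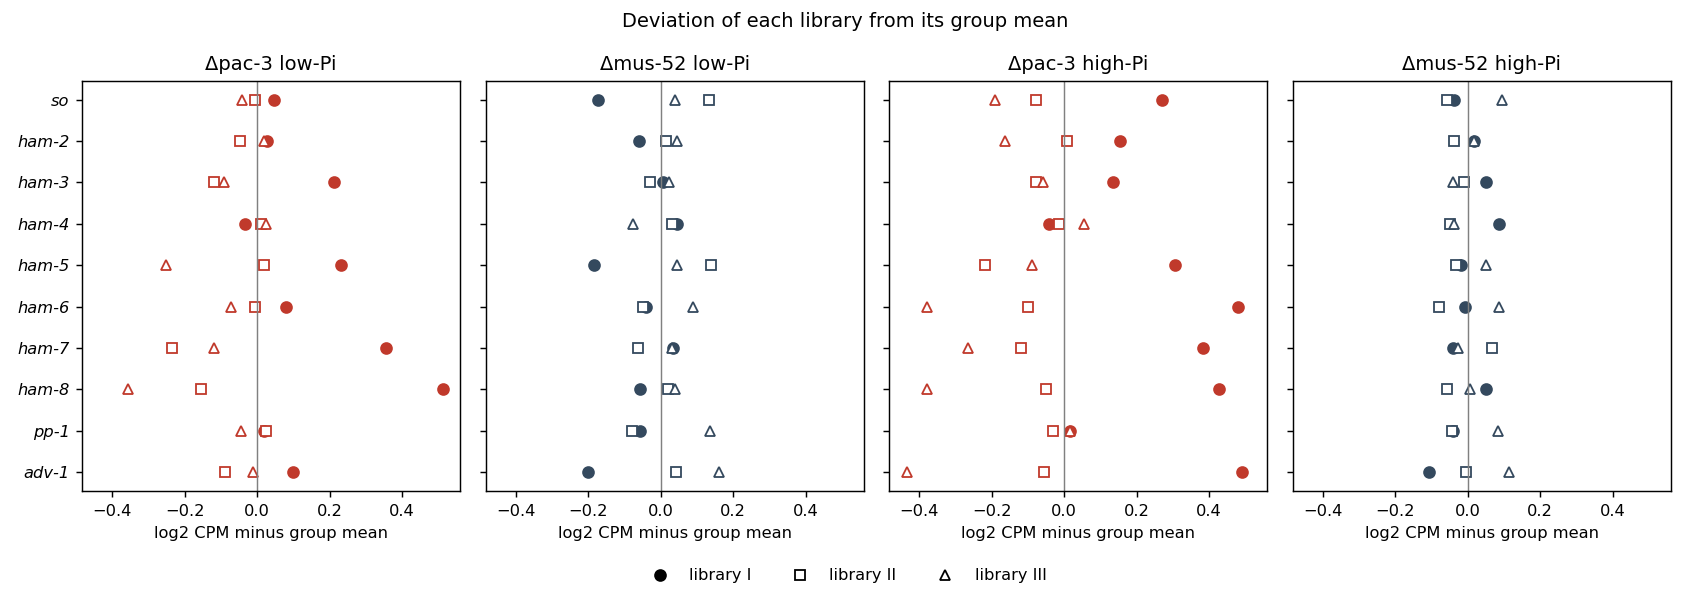
Deviation of each library from the mean of its group (log2 CPM, x axis) for the 10 fusion genes, 1 panel per group. Replicate I (filled circles) lies to the right of the other replicates for 8 of 10 genes in both Δpac-3 panels, by up to 0.51 from the group mean, and the points of the Δmus-52 panels stay between -0.20 and 0.16.

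The response to Pi was compared within each strain, low-Pi over high-Pi, in the 6 libraries of that strain. In Δmus-52, 4 of the 10 fusion genes were lower in low-Pi and 0 were higher, against 32.6% of 8190 genes called, 18.1% as higher and 14.4% as lower. None was past a log2 fold change of 1.5 in size, against 3.6% of all genes. The 4 were ham-7, ham-8, ham-6 and ham-3, which are all 3 surface and membrane protein genes and striatin. In each of them the 3 low-Pi libraries lay below the 3 high-Pi libraries, where 48.3% of all genes had libraries that did not overlap, 22.8% with low-Pi above and 25.5% with low-Pi below.

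For ham-7, the libraries of Δmus-52 had 84.8, 79.3 and 84.6 CPM in low-Pi, against 119.7, 129 and 121 CPM in high-Pi, a log2 fold change of -0.55 (SE 0.08, edgeR adjusted p = 0.00101). For ham-8 the values were 91.6, 96.7 and 97.9 CPM in low-Pi, against 143, 133 and 139 CPM in high-Pi, and the log2 fold change was -0.51 (SE 0.08, edgeR adjusted p = 0.00132). Both genes were thus lower by a like amount in low-Pi, with SDs of at most 5.16 CPM in the 4 sets of libraries. The gene ham-6 was at 28.0, 27.8 and 30.6 CPM in low-Pi, against 36.9, 35.1 and 39.5 CPM in high-Pi. Its log2 fold change was -0.35 (SE 0.09, edgeR adjusted p = 0.0155). The striatin gene ham-3 was at 112, 109 and 113 CPM in low-Pi, against 148, 142 and 139 CPM in high-Pi, which gave -0.33 on the log2 scale (SE 0.08, edgeR adjusted p = 0.0096). With all 12 libraries in 1 fit, which shares 1 estimate of the spread, the calls of ham-6 (edgeR adjusted p = 0.1485) and ham-8 (edgeR adjusted p = 0.1045) were lost, and without replicate II of Δmus-52 low-Pi that of ham-6 was lost (edgeR adjusted p = 0.06735). Of the 9 conidial markers, 5 were higher and 0 lower in this comparison, where 18.1% of all genes were higher and 14.4% lower. Of the 3 markers of growing hyphae, 0 were higher and 2 lower, the actin gene act at -0.32 and hex-1 at -0.28, with a median of -0.28 over the 3. The tubulin gene Bml was at -0.12 (edgeR adjusted p = 0.291) and was not called. The summed level of these 3 was 3162 to 3464 CPM in low-Pi, against 3943 to 4304 CPM in high-Pi, and none was at 0. The part of both lists was not tested.

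The remaining 6 genes had log2 fold changes of -0.07 to 0.04 between low-Pi and high-Pi in Δmus-52. The transcription factor genes were among them, with 0.04 for pp-1 (95% interval -0.16 to 0.25) and -0.02 for adv-1 (95% interval -0.26 to 0.22).

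In Δpac-3, 0 of the 10 genes passed the test of low-Pi over high-Pi, where 0 of 8348 genes passed it (0.0% called), 413 genes had an unadjusted edgeR p below 0.05, and DESeq2 called 22 genes. None of the 10 had an unadjusted p below 0.05, and DESeq2 called 0 of the 10. Libraries were separate for 2 of the 10, ham-4 and pp-1, with low-Pi below in both, against 10.8% of all genes, 5.56% with low-Pi above and 5.22% below. The median of the absolute log2 fold change over the 10 genes was 0.09, and 0.14 over all genes. For ham-7 the value in Δpac-3 was -0.02, with a 95% interval of -0.53 to 0.48, and for ham-8 it was -0.20, with a 95% interval of -0.83 to 0.43. The interval of ham-8 includes its value in Δmus-52, -0.51, and that of ham-7 ends just short of its -0.55. These values rest on single libraries: without replicate I of Δpac-3 low-Pi they were -0.23 for ham-7 and -0.51 for ham-8, and without replicate I of Δpac-3 high-Pi they were 0.19 for ham-7 and 0.04 for ham-8. For ham-6 the value was -0.40 (SE 0.21, edgeR adjusted p = 0.939), and it was -0.13 without replicate I of Δpac-3 high-Pi. For adv-1 it was 0.11, and 0.38 without that library. The common biological coefficient of variation, edgeR's measure of spread between replicates, was 0.208 in the Δpac-3 libraries and 0.12 in the Δmus-52 libraries.

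**Figure D4:**
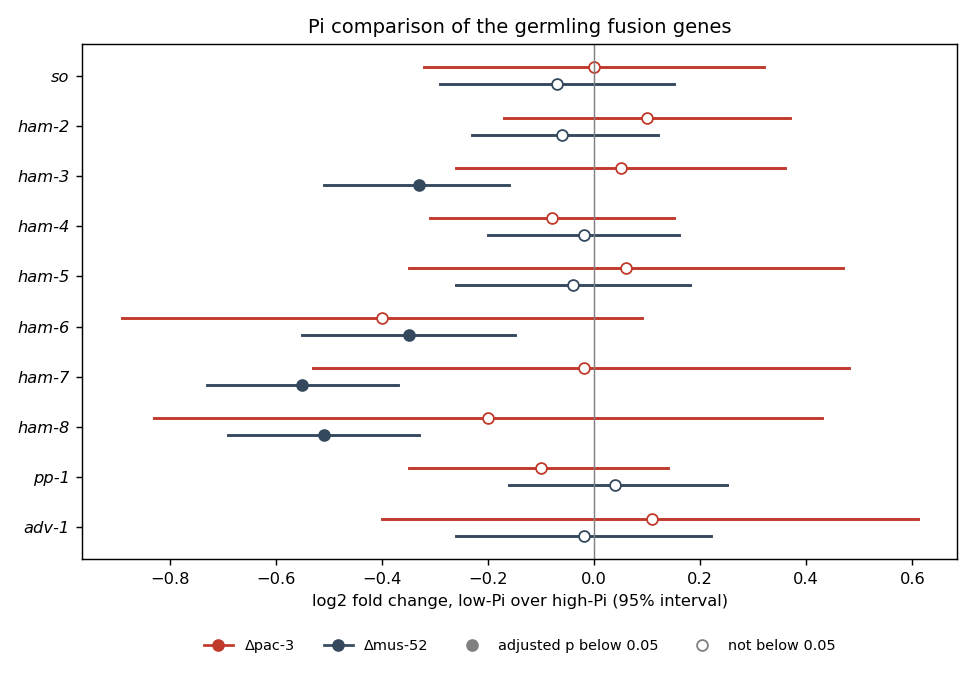
Log2 fold change of low-Pi over high-Pi for each fusion gene (x axis) in Δpac-3 and in Δmus-52, with 95% intervals from edgeR and filled points where the adjusted p is below 0.05. The filled points are ham-3, ham-6, ham-7 and ham-8 in Δmus-52, between -0.55 and -0.33, and the intervals of Δpac-3 are wider and all include 0.

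The strain comparison in low-Pi and the Pi comparison in Δmus-52 both use the 3 libraries of Δmus-52 low-Pi, so the calls of ham-7 and ham-8 in them are not independent. Side by side, ham-7 had a log2 fold change of 0.89 between strains in low-Pi and -0.55 between Pi levels in Δmus-52, and ham-8 had 0.66 and -0.51. For both genes Δmus-52 low-Pi was the lowest of the 4 groups and was separate from the next, Δmus-52 high-Pi, whose libraries overlapped with those of Δpac-3 low-Pi. For pp-1 the order was by strain, with means of 213.9 CPM in Δpac-3 high-Pi, 199.1 CPM in Δpac-3 low-Pi, 127 CPM in Δmus-52 low-Pi and 125 CPM in Δmus-52 high-Pi. The libraries of pp-1 were separate between the Pi levels of Δpac-3 and overlapped between those of Δmus-52, and in Δpac-3 the log2 fold change was -0.10 (SE 0.11, edgeR adjusted p = 0.951). For adv-1 the order was again by strain, with means of 187 CPM in Δpac-3 low-Pi, 174 CPM in Δpac-3 high-Pi, 114 CPM in Δmus-52 high-Pi and 110.1 CPM in Δmus-52 low-Pi, and the libraries overlapped between the Pi levels of each strain.

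The profiles of the genes with the largest strain differences were set beside those of all 8464 other genes tested, by the root mean square difference of centred log2 CPM over the 12 libraries. This is a description of likeness, with no test. The profile nearest to ham-7 was that of NCU08053, at 0.10, followed by NCU06608 at 0.12 and NCU07947 at 0.13, and the nearest fusion gene, ham-8, was at 0.15 and ranked 10 of 8464. For pp-1 the nearest were NCU05349, NCU03055 and NCU03613, each at 0.10, and for adv-1 they were NCU09295 at 0.14, erg-3 (NCU08762), a sterol reductase gene, at 0.15 and NCU03605 at 0.16. The transcription factor genes were not each other's near neighbours: the distance of pp-1 and adv-1 was 0.22, which ranked 113 of 8464 from adv-1 and 368 of 8464 from pp-1.

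Of 40 further genes written down for the pathways around fusion, 28 carry a symbol in the annotation and were followed. Some of these, such as smco-7, had been written down under another name. In low-Pi 7 of the 28 were higher in Δpac-3 and 3 lower, with a median log2 fold change of 0.12, and in high-Pi 3 were higher and 1 lower, with a median of 0.12 (all genes 0.02 and -0.01). Among all genes 25.3% were higher and 25.9% lower in low-Pi, and 18.8% higher and 16.6% lower in high-Pi, so the counts over the 28 genes were near or below these shares. Around MAK-1, 3 of 7 genes were higher in low-Pi and 2 of 7 in high-Pi. They were the MAP kinase kinase gene mek-1 (log2 fold change 0.86 in low-Pi and 0.82 in high-Pi, edgeR adjusted p = 0.00022 and 0.0315), the GTPase gene rho-1 (0.37 and 0.40, edgeR adjusted p = 0.0101 and 0.0276) and, in low-Pi, the kinase gene mik-1 (0.43, edgeR adjusted p = 0.00144). The high-Pi call of mek-1 was lost in 3 of 13 alternatives and that of rho-1 in 4 of 13, all with 1 library left out (each of the 3 of Δmus-52 high-Pi for both genes, and replicate I of Δpac-3 high-Pi for rho-1). The kinase gene mak-1 itself was not called, with -0.06 at low-Pi and -0.09 at high-Pi. Around MAK-2, 2 of 6 genes were higher at low-Pi and 0 at high-Pi. They were the kinase gene nrc-1 (0.42, edgeR adjusted p = 0.00408) and the Ras gene smco-7 (0.36, edgeR adjusted p = 0.0276, a call lost in 5 of 13 alternatives, each with 1 library left out), while mak-2 had 0.20 in low-Pi and was not called. The genes of this paragraph, and nox-1 and Prm1 below, were named after their values were seen.

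In low-Pi the largest difference among the 28 genes was in nor-1 (NCU07850), which encodes the regulator of the NADPH oxidases. It was at 66.6, 53.7 and 52.04 CPM in Δpac-3 low-Pi, against 158, 151 and 156 CPM in Δmus-52 low-Pi. In high-Pi it was at 73.7, 57.7 and 74.1 CPM in Δpac-3, against 119.7, 134 and 153 CPM in Δmus-52. The libraries were separate at both Pi levels. The log2 fold change of nor-1 was -1.43 in low-Pi (SE 0.11, edgeR adjusted p = 2.85e-06) and -0.99 in high-Pi (SE 0.15, edgeR adjusted p = 0.00282). The gene of the catalytic subunit, nox-1, was called in neither, with -0.01 at low-Pi and -0.34 at high-Pi. In high-Pi the largest value was that of Prm1, a gene of plasma membrane merger, at 1.14 (SE 0.45, edgeR adjusted p = 0.0856), which was not called. DESeq2 gave it an adjusted p of 0.0241, and the Δpac-3 libraries of Prm1 lay above those of Δmus-52. Between low-Pi and high-Pi, 0 of the 28 genes were called in Δpac-3, where 0 of 8348 were, and 2 were higher and 6 lower in Δmus-52, against 18.1% of all genes higher and 14.4% lower.

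**Figure D5:**
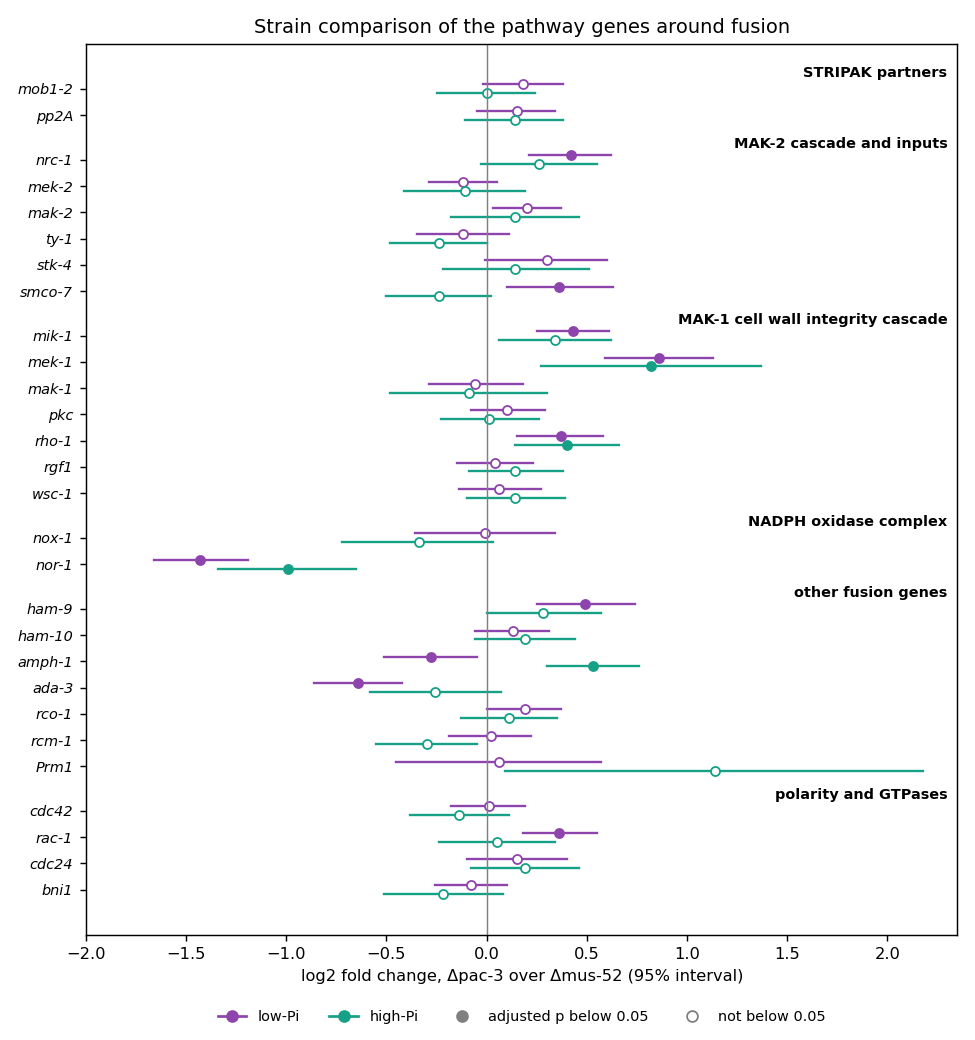
Log2 fold change of Δpac-3 over Δmus-52 (x axis) in low-Pi and high-Pi for the 28 pathway genes, grouped by list, with 95% intervals from edgeR and filled points where the adjusted p is below 0.05. The lowest points are those of nor-1, at -1.43 and -0.99, Prm1 in high-Pi has the widest interval, and mek-1 and rho-1 are filled on the right at both Pi levels.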

How the data were processed

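The libraries were paired-end RNA-seq of 12 cultures. The authors trimmed the reads by quality (FastQC 0.11.7 is named for quality control), mapped them to the NC12 genome assembly with Bowtie2 2.3.4 and deposited raw counts per gene and library, without normalization. The counting tool, its gene models and the use of strand are not given in the sources used here, so overlapping genes may share reads. Count totals are larger than the mapped read numbers the study lists, so both mates of a pair may have been counted. The deposited tables of the authors' own strain comparisons (fold changes and p-values) were not used.

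Counts were fitted in R 4.3.3 with edgeR 4.0.16 (which loads limma 3.58.1): filterByExpr (minimum count 10, minimum total 15), TMM factors and the quasi-likelihood F test, for each comparison of 2 groups in its 6 libraries and for the interaction in all 12. Adjusted p-values (Benjamini-Hochberg) run over all genes tested, and a gene was called at an adjusted p below 0.05. The totals of 20240314 to 82211503 counts give at least 556 counts for every fusion gene. The spread between replicates differed by gene. In Δpac-3 low-Pi the coefficient of variation was 33.2% for ham-8 and 2.1% for ham-4. Alternatives were DESeq2 1.42.0, median-of-ratios factors, library totals only, no filter, a minimum count of 50, a replicate block, 1 fit of 12 libraries, stricter or looser thresholds and leaving out each library. The fit was tested on simulated data, with 100 genes changed by 0.75 on the log2 scale and 100 by 2 in each comparison. Of the genes changed by 0.75 on the log2 scale, it recovered 78% for the strains in low-Pi and 22% in high-Pi. For the interaction it recovered 11%, for Pi in Δpac-3 36% and for Pi in Δmus-52 73%. Fewer genes were changed than the data called in each comparison but Pi in Δpac-3, which makes the adjusted p stricter than in the data. The shares for these comparisons may therefore be too low for the data. A gene not called in high-Pi or for the interaction is still not shown to be unchanged. Profiles used log2 CPM with a prior count of 2, and pandas 2.3.3, numpy 2.4.6 and matplotlib 3.10.9 under Python 3.11.15 made the tables and figures. Gene symbols and positions came from the RefSeq annotation of NC12, matched by locus tag. The named genes were the 10 fusion genes, the deleted genes, pathway genes called with a log2 fold change of 1 or more in size (nor-1), and the 3 profiles nearest to the genes with the largest strain differences. Other pathway genes were named after their values were seen. The genes and lists were chosen with earlier results of these data known.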

Additional observations from a re-analysis of the deposited data

Results flagged for a closer look

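In 2 of the 28 pathway genes, both singled out after their values were seen, the strain effect differed between the Pi levels by the interaction test, which called 10.5% of all genes. The gene amph-1, which encodes an amphiphysin-like protein of the membrane, was at 58.7, 74.7 and 75.3 CPM in Δpac-3 low-Pi, against 83.4, 84.3 and 86.0 CPM in Δmus-52 low-Pi, with all 3 libraries of Δpac-3 below. In high-Pi it was at 74.7, 82.8 and 78.7 CPM in Δpac-3, against 53.2, 53.1 and 55.8 CPM in Δmus-52, with all 3 above. The log2 fold change of amph-1 was -0.28 in low-Pi (edgeR adjusted p = 0.0472) and 0.53 in high-Pi (edgeR adjusted p = 0.00627), and the interaction was -0.83 (SE 0.14, edgeR adjusted p = 0.00473), which kept its call in all 19 alternatives. The low-Pi value lost its call in 6 of 13 alternatives, and was -0.09 with library totals only.

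The strain difference of the Ras gene smco-7 was 0.36 on the log2 scale in low-Pi (edgeR adjusted p = 0.0276) and -0.24 in high-Pi (edgeR adjusted p = 0.13), and an interaction of 0.59 (SE 0.17, edgeR adjusted p = 0.0435). The libraries of Δpac-3 lay above those of Δmus-52 in low-Pi (96.8, 135 and 126 CPM against 91.6, 95.2 and 92.7 CPM) and below them in high-Pi (104.02, 94.4 and 94.3 CPM against 122, 104.49 and 118 CPM). The interaction of smco-7 lost its call in 12 of 19 alternatives, with adjusted p-values of 0.0116 to 0.097 when 1 library was left out.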

How the results depend on the processing

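Of 720 log2 fold changes of the fusion genes under the alternatives, 703 kept their side of the threshold, 3 lost a call, 14 gained one and 0 called values reversed. Scaling by library totals only moved the median of all genes by 0.18 in low-Pi and 0.26 in high-Pi (log2), and gave 3086 genes higher and 1409 lower in Δpac-3 in low-Pi, against 2093 and 2138 with TMM, and 2569 and 689 in high-Pi, against 1560 and 1375. Fusion genes called then were 7 in low-Pi, adding so, ham-3 and ham-5, and 3 in high-Pi, adding ham-7 and adv-1. In high-Pi both DESeq2 and the fit of 12 libraries called 2, adding adv-1. Leaving out 1 library gave 4 to 5 calls in low-Pi and 1 to 3 in high-Pi, with 2 without Δpac-3 high-Pi replicate I (pp-1, and ham-6 as lower) and 3 without replicate III (pp-1, ham-8 and adv-1). For the interaction it gave 0 to 2, and 1 call stood without replicate I of both Δpac-3 groups, an alternative chosen after the data were seen. For Pi in Δmus-52 it gave 3 to 4 calls, and the fit of 12 libraries gave 2. For Pi in Δpac-3 it gave 0. The adjusted p of ham-8 in low-Pi ran from 0.001268 to 0.05 over the alternatives, below the threshold in each before rounding. The cause of these changes was not tested.

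Replicate numbers are shared by the groups, but same-numbered libraries did not deviate together throughout: the correlations of their deviations were 0.05 to 0.07 between strains in low-Pi and -0.16 to 0.31 in high-Pi, 0.05 to 0.36 between Pi levels in Δpac-3 and 0.08 to 0.25 between Pi levels in Δmus-52. Every Δpac-3 low-Pi library correlated best with its own number in Δmus-52 low-Pi, and every Δmus-52 low-Pi library with its own number in Δmus-52 high-Pi. This did not hold for all Δpac-3 high-Pi libraries against Δmus-52 high-Pi, or for all Δpac-3 low-Pi libraries against Δpac-3 high-Pi. The match from the other side was not examined. The libraries are taken to share only a number. The fit with the replicate number as a block gave 4 fusion genes in low-Pi, 1 in high-Pi, 0 for the interaction, 0 for Pi in Δpac-3 and 4 for Pi in Δmus-52, as without the block.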
